A study of Mus musculus with 2 samples.

Results

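The subject here is a set of 10 genes of biliary and progenitor epithelium, Krt19, Krt7, Krt8, Krt18, Epcam, Sox9, Cldn7, Tm4sf4, Clu and Cldn3, chosen by name as markers of bile duct and progenitor-like cells out of 32285 genes in the count tables. They were read in single cells of liver tumours from Crtc2+/+ and Crtc2-/- mice, with 1 library per genotype. All mice had received the liver carcinogen DEN at 25 mg/kg, injected into the abdominal cavity when 2 weeks old, and were kept on a NASH diet between weeks 8 and 26. Crtc2+/+ mice carry both copies of the gene, and Crtc2-/- mice lack it; the labels name no tissue-restricted deletion. The labels do not say how many animals or tumours went into each library, so genotype, animal, tumour and library cannot be told apart.

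Hepatocytes and cholangiocytes, the cells that line bile ducts, arise from a common fetal progenitor. Adult hepatocytes carry the simple-epithelial keratin pair Krt8 and Krt18, whereas Krt7 and Krt19 are added in duct cells, together with the adhesion molecule Epcam and the transcription factor Sox9. In chronic liver injury, cells that combine hepatocyte and duct genes can appear, and duct genes are also read in some liver cancers. Crtc2 is a coactivator of the transcription factor CREB, which binds the cyclic AMP response element (CRE).

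Because CREB is the factor through which Crtc2 acts, the letters before the start sites were searched for the CRE. Promoter letters from RefSeq (GRCm38.p6) were found for 7 of the 10 genes, as 8 windows of 250 bases before a start, 2 of them for Cldn7. Both strands were searched for the full CRE, TGACGTCA, for the shorter TGACG, which lies within it, and for the AP-1 motif TGANTCA. The TATA motif TATAAA was searched on the gene's own strand. Of 32851 promoter windows of this length, 1.55% held the full CRE, 17.8% TGACG, 6.75% AP-1 and 7.59% TATA. Among the members, the full CRE was found before the second Cldn7 start, with its first base at -38, and TGACG before Cldn3, at -91. The other windows, Epcam among them, held none of these letters. The stretches below show both matches and, for Epcam, which differed between the libraries, a window without a match. For Cldn7 the stretch is limited to the 29 bases outside annotated exons. Capitals mark the full CRE in Cldn7 and, in Cldn3, CGTCA, which is TGACG read on the other strand.
Cldn7, chr11:69965367-69965395, + strand: gtgagtgtcccttcagTGACGTCAggtca
Cldn3, chr5:134985964-134986213, + strand: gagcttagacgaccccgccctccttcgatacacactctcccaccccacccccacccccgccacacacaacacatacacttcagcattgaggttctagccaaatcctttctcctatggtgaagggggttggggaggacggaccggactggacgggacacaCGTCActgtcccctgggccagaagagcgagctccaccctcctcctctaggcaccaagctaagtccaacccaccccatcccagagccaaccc
Epcam, chr17:87635729-87635978, + strand: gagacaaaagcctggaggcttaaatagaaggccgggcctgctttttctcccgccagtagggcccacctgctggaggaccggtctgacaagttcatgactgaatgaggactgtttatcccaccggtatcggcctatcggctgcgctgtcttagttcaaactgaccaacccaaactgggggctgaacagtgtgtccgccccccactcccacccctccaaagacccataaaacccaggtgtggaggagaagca
A match describes letters in the reference and was not measured as a binding site here.

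All 10 genes are protein-coding in GENCODE M21 (GRCm38). Krt8 (chr15:101996698-102004482, minus strand) and Krt18 (chr15:102028180-102032027, plus strand) lie 23697 bases apart and are transcribed away from each other, and Krt7 (chr15:101411043-101430313) lies 566384 bases from Krt8. Krt19 (chr11:100140810-100148665), Sox9 (chr11:112782224-112787760) and Cldn7 (chr11:69964779-69967885) share chromosome 11. The others are Cldn3 (chr5:134986214-134987472), Tm4sf4 (chr3:57425314-57441677), Clu (chr14:65968483-65981547) and Epcam (chr17:87635979-87651129). The annotation also holds a Krt8 pseudogene, and the labels do not say how reads shared with it were counted, so Krt8 counts are uncertain to that extent.

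After filters, 9349 Crtc2+/+ and 8901 Crtc2-/- cells remained, with medians of 7115 and 6560 UMIs (unique molecular identifiers, which tag single captured transcripts). The libraries shared 29 barcodes. Most cells were immune cells: macrophages by complement C1q genes made up 53.6% of Crtc2+/+ and 20.04% of Crtc2-/- cells. Crtc2 itself was sparse. In hepatocyte marker-positive cells it had 24 UMIs, or 9.70 CPM (UMIs of the gene per 1000000 UMIs of those cells; exact 95% Poisson interval 6.21 to 14.4), in the Crtc2+/+ library and 13 UMIs, or 4.10 CPM (2.18 to 7.01), in the Crtc2-/- library. The labels do not say which part of Crtc2 was deleted, so transcripts outside it could still be counted, and these counts do not check the genotype. All intervals here are 95% and cover counting error only; for a count of 0, the limit given is that of 3 counts.

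Hepatocyte marker-positive cells, with at least 20 UMIs of Alb, Apoa1 and Ttr together, numbered 270 in the Crtc2+/+ library (2.89% of cells, exact interval 2.56 to 3.25) and 239 in the Crtc2-/- library (2.69%, 2.36 to 3.04). Their median depths were 7620 and 11401 UMIs, and their median mitochondrial shares 4.88% and 1.78%. Other hepatocyte genes supported the name for most of them: 259 of 270 and 232 of 239 cells had at least 10 UMIs of 14 further hepatocyte genes, such as Fgb (fibrinogen) and Ahsg (fetuin-A). Cholangiocyte genes were present too: 122 Crtc2+/+ and 91 Crtc2-/- cells had at least 10 UMIs of 15 cholangiocyte genes other than Spp1. Both lists were met in 115 (42.6%) and 89 cells (37.2%). Leukocyte transcripts were also present, since 49 Crtc2+/+ and 42 Crtc2-/- cells had more than 9 C1q UMIs or a Cd3 UMI. The second compartment, called non-hepatocyte epithelial, held cells with fewer than 20 UMIs of the 3 hepatocyte genes, at least 3 of the 10 members, at most 9 C1q UMIs and no Cd3 UMI. It held 71 Crtc2+/+ cells (0.759%, 0.594 to 0.957) and 18 Crtc2-/- cells (0.202%, 0.120 to 0.319), a number under 50 in the second library.

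The word non-hepatocyte went against the data for much of that compartment. Of the 71 Crtc2+/+ cells, 55 had at least 10 UMIs of the 14 further hepatocyte genes and 52 had at least 10 UMIs of 15 cholangiocyte genes other than Spp1. Both lists were met in 45 cells, the cholangiocyte list alone in 7 and neither in 9. In the 18 Crtc2-/- cells the same counts were 10, 10, 9, 1 and 7, and 3 cells carried at least 10 endothelial UMIs and another count of 3 at least 10 dendritic UMIs. The compartment is therefore described by its rule. Just below the threshold, at 15 to 19 UMIs of the 3 hepatocyte genes, 16 Crtc2+/+ cells of this compartment had a median of 6 members. Just above it, at 20 to 24 UMIs, 26 hepatocyte marker-positive cells had 6.5. The cells below had at least 3 members by the rule and those above were not chosen by members, so likeness of the medians shows no continuity.

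Most members were far more frequent in hepatocyte marker-positive cells than in T cells when depth was equalised by drawing 1000 UMIs from every cell. Clu, which encodes the secreted chaperone clusterin, was then found in 71.0% of 252 hepatocyte marker-positive Crtc2+/+ cells and in 51.5% of 233 Crtc2-/- cells, against 0.836% and 0.847% of T cells. Krt18 was found in 54.4% and 55.4%, against 0.261% and 0.192% of T cells, and Krt8 in 51.6% and 39.5%, against 0.105% and 0.154%. Tm4sf4, a tetraspan membrane protein of liver and intestinal epithelium, was found in 46.0% and 36.9%, Cldn3, a tight junction claudin, in 23.4% and 15.5%, and Sox9 in 21.4% and 8.58%. All 6 genes exceeded their T cell, B cell and macrophage shares in both libraries. Left out for being shallower than 1000 UMIs were 18 Crtc2+/+ and 6 Crtc2-/- hepatocyte marker-positive cells.

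A second tier was found in few cells. Krt19 had a UMI in 4.37% of the thinned Crtc2+/+ cells (2.20 to 7.68) and in 3 of 233 Crtc2-/- cells (1.29%, 0.266 to 3.72), and in 0 of 1913 and 0 of 2599 T cells, which at 3 counts allows a share of up to 0.157% and 0.115%. Krt7 was found in 1.98% and 0.858%, and Cldn7, another claudin, in 4.37% and 3.43%. Epcam was found in 10.7% (7.18 to 15.2) of Crtc2+/+ and 2.15% (0.700 to 4.94) of Crtc2-/- cells, but also in 1.62% and 1.54% of T cells. That Crtc2-/- share came from 1 random draw and was low: averaged over all possible draws, Epcam was expected in 9.85% and 4.05% of hepatocyte marker-positive cells and in 1.34% and 1.21% of T cells, and Krt19 in 3.41% and 0.879% of hepatocyte marker-positive cells.

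**Figure D1:**
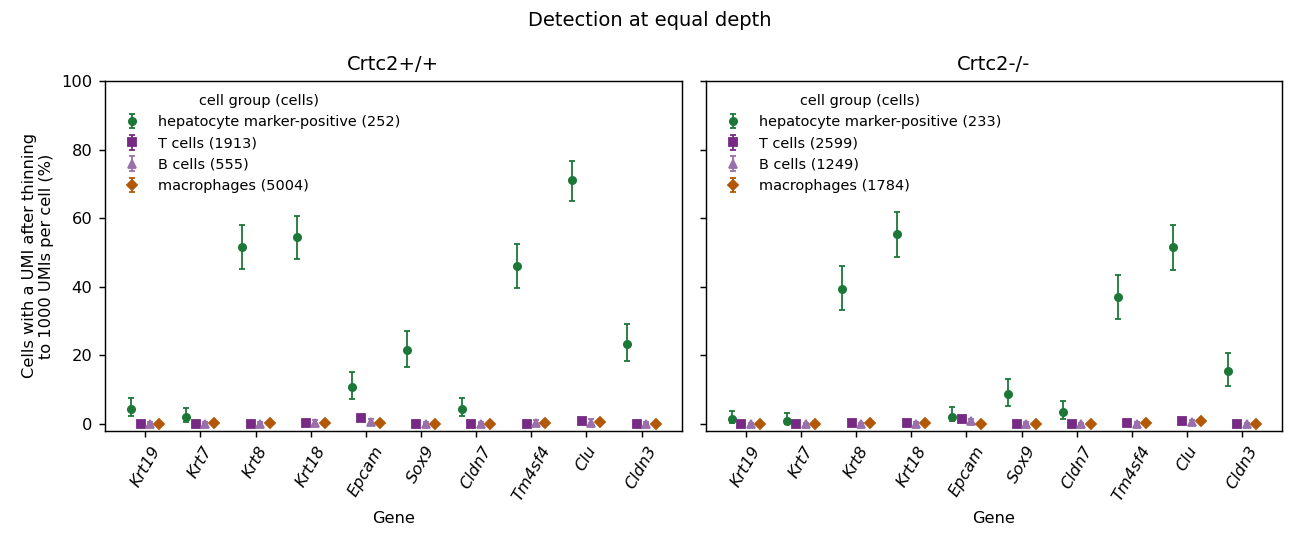
Share of cells with a UMI of each gene (y axis, percent) with 1000 UMIs drawn once per cell, in hepatocyte marker-positive cells, T cells, B cells and macrophages of each library; bars are exact 95% binomial intervals. Clu, Krt18, Krt8 and Tm4sf4 reach 36.9% or more of hepatocyte marker-positive cells in both libraries, and Krt19, Krt7 and Cldn7 stay at or under 4.37%.

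Without thinning, the duct keratins were found in few hepatocyte marker-positive cells, and their levels were lower in the Crtc2-/- library. Krt19, the keratin that marks bile ducts, had 218 UMIs in 23 of 270 Crtc2+/+ cells (88.1 CPM, 76.8 to 101) and 42 UMIs in 11 of 239 Crtc2-/- cells (13.2 CPM, 9.54 to 17.9). The CPM ratio, Crtc2-/- over Crtc2+/+, was 0.150 (0.105 to 0.210), and the log2 ratio after adding 10 CPM to each side was -2.08. The intervals do not overlap, but few cells carry the value: 5 cells held 60.6% of the Krt19 UMIs in the Crtc2+/+ and 81.0% in the Crtc2-/- library. Krt7, its partner keratin of ducts, had 64 UMIs in 21 cells (25.9 CPM, 19.9 to 33.0) and 27 UMIs in 9 cells (8.51 CPM, 5.61 to 12.4), a log2 ratio of -0.95. So the 2 duct keratins were both lower, Krt7 just short of 2-fold on this scale.

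Epcam, a homophilic adhesion molecule of ducts and progenitors, had 605 UMIs in 54 Crtc2+/+ cells (244 CPM, 225 to 265) and 248 UMIs in 33 Crtc2-/- cells (78.2 CPM, 68.8 to 88.5), a log2 ratio of -1.53. Sox9, which marks duct cells and hepatocytes turning on duct genes, had 895 UMIs in 118 cells (362 CPM, 338 to 386) and 441 UMIs in 76 cells (139 CPM, 126 to 153), a log2 ratio of -1.32. Both genes were thus more than 2-fold lower in the Crtc2-/- library, and Sox9 was spread over more cells than Epcam in each.

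The claudins differed less. Cldn3 had 359 CPM (336 to 383) in 158 Crtc2+/+ cells and 255 CPM (238 to 273) in 123 Crtc2-/- cells, a log2 ratio of -0.48. In cells with at least 50 UMIs of the 3 hepatocyte genes, the log2 ratio of Cldn3 came to -0.01. Cldn7 had 75.6 CPM (65.1 to 87.2) in 56 cells and 66.5 CPM (57.8 to 76.1) in 52 cells, a log2 ratio of -0.16, and the interval of its CPM ratio, 0.720 to 1.08, included equal levels. Cldn7 took a log2 ratio of 0.32 when cells with a Krt19 UMI were left out and of 0.47 in cells with at least 50 UMIs of the 3 hepatocyte genes, so its direction depended on the cells counted.

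Krt8 and Krt18, whose proteins pair into one filament in hepatocytes and ducts, were detected in most hepatocyte marker-positive cells. Krt8 had 1249 CPM (1205 to 1294) in 215 Crtc2+/+ cells and 848 CPM (816 to 880) in 170 Crtc2-/- cells, a log2 ratio of -0.55. Krt18 had 1415 CPM (1369 to 1463) in 217 cells and 1273 CPM (1234 to 1313) in 193 cells, a log2 ratio of -0.15. The partners therefore did not differ by the same amount. Krt8 UMIs per Krt18 UMI came to 0.882 (0.841 to 0.926) in the Crtc2+/+ and 0.666 (0.634 to 0.700) in the Crtc2-/- library.

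Tm4sf4 and Clu were close between the libraries. Tm4sf4 had 1475 CPM (1428 to 1524) in 177 Crtc2+/+ cells and 1409 CPM (1368 to 1451) in 129 Crtc2-/- cells, a log2 ratio of -0.07, which turned to 0.11 in cells with at least 50 UMIs of the hepatocyte genes and lay at 0.00 when called doublets were kept. Clu had 6345 CPM (6246 to 6445) in 236 cells and 5244 CPM (5165 to 5324) in 172 cells, a log2 ratio of -0.27, which turned to 0.32 with that minimum of 50. Neither gene had a direction that held over these choices.

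**Figure D2:**
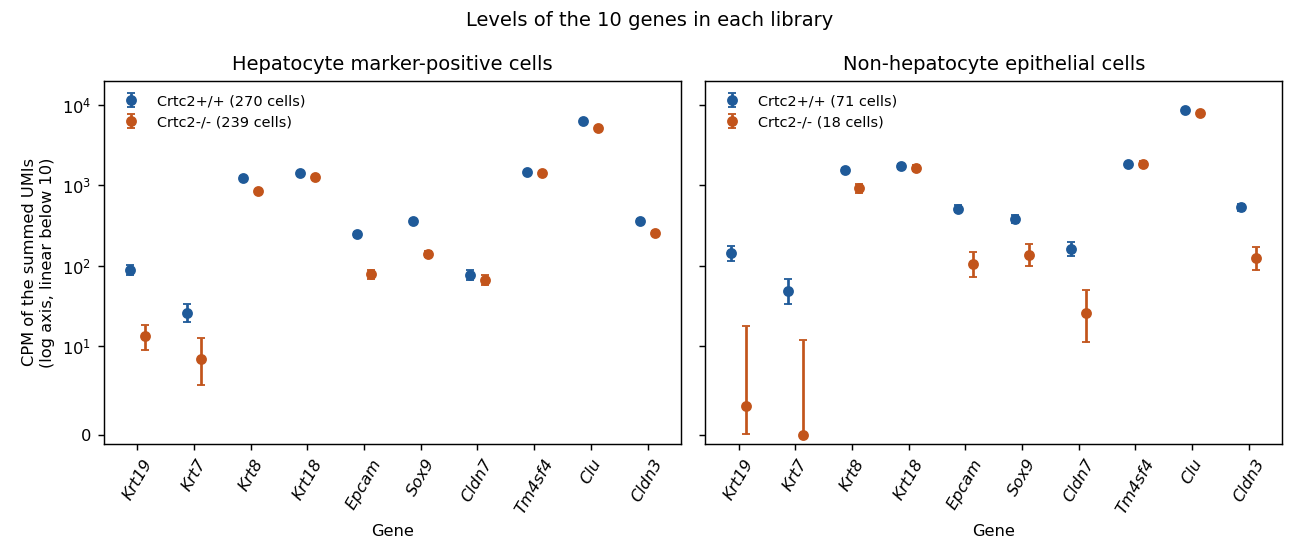
CPM of the summed UMIs (y axis, log scale, linear below 10) of the 10 genes in hepatocyte marker-positive (left) and non-hepatocyte epithelial cells (right) of each library; points are libraries and bars exact 95% Poisson intervals. In the left panel Krt19, Epcam and Sox9 are lower in the Crtc2-/- library (13.2 against 88.1, 78.2 against 244 and 139 against 362 CPM), and Tm4sf4 is close (1409 against 1475).

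In all, 3 of the 10 members (Krt19, Epcam and Sox9) were at least 2-fold lower in the Crtc2-/- library and 0 were 2-fold higher, where 4.0% of 12342 genes with at least 20 UMIs were 2-fold lower and 4.21% higher. All 10 log2 ratios lay below 0, with a median of -0.52, against -0.05 over all genes. With 1 library per genotype there is no replicate, and no test was made. Without the cells that carried leukocyte transcripts, 221 Crtc2+/+ and 197 Crtc2-/- cells were left, 4 members were 2-fold lower (Krt7 at -1.04 in addition), the median was -0.78 and the shares over all genes 4.83% lower and 4.94% higher. With at least 50 UMIs of the hepatocyte genes, Sox9 came to -0.95, short of 2-fold, while Krt19 and Epcam kept values of -1.81 and -1.15.

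Several members were usually found in the same cell. In hepatocyte marker-positive cells the median was 5 members in the Crtc2+/+ and 4 in the Crtc2-/- library. At least 3 members were found in 204 of 270 cells (75.6%, 70.0 to 80.6) and in 163 of 239 cells (68.2%, 61.9 to 74.1). At 1000 UMIs per cell the shares were 54.4% (48.0 to 60.6) and 40.8% (34.4 to 47.4). T cells, B cells and macrophages had 3 or more members in 0.0385% to 0.200% of cells without thinning. All 10 members were found together in 15 Crtc2+/+ and 6 Crtc2-/- hepatocyte marker-positive cells.

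Across hepatocyte marker-positive cells some members were correlated in both libraries. The log-normalised values of Krt19 and Krt7 had a Pearson r of 0.83 in 270 Crtc2+/+ and 0.73 in 239 Crtc2-/- cells, Krt19 and Epcam of 0.74 and 0.81, and Epcam and Cldn7 of 0.81 and 0.70. Tm4sf4 and Clu had r of 0.71 and 0.82, and the filament partners Krt8 and Krt18 of 0.65 and 0.65. Between the duct and simple-epithelial keratins, Krt19 and Krt18 had r of 0.16 and 0.13. Krt19 was found in only 23 of the 270 and 11 of the 239 cells, and together with Krt7 in 17 and 7. The r values of Krt19 thus rest on few cells. Cells of a library share its depth and its free RNA, and these correlations are descriptions.

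**Figure D3:**
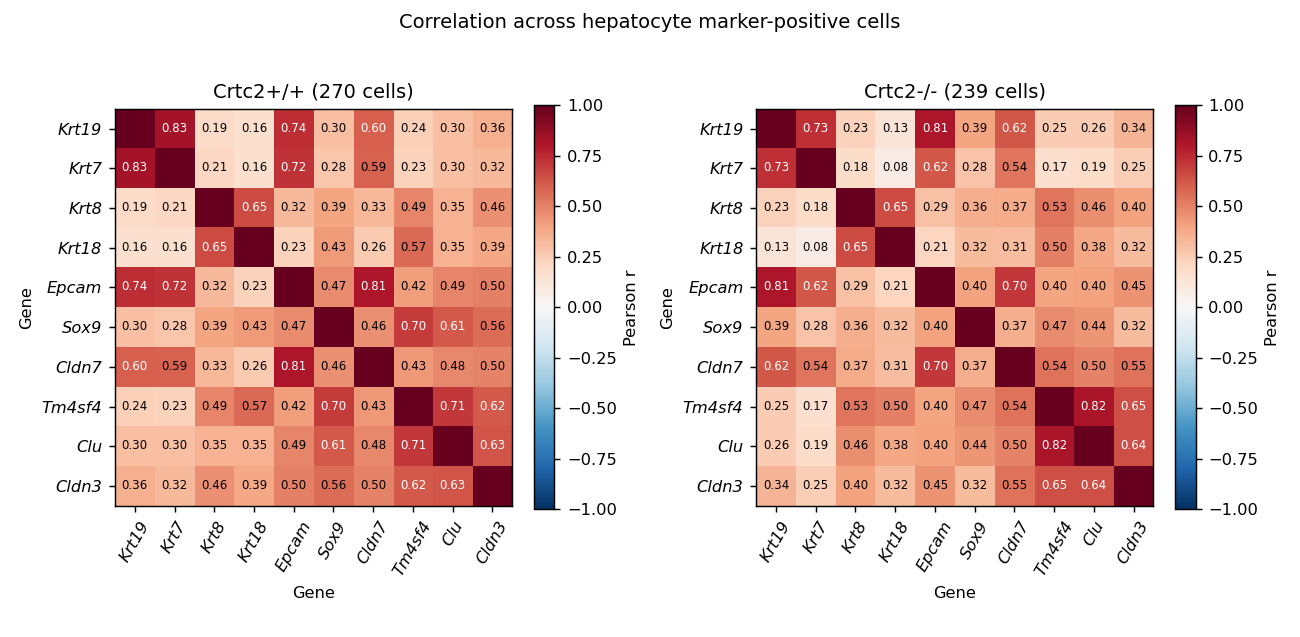
Pearson r between the log-normalised values of each pair of genes (x and y axes) across hepatocyte marker-positive cells of each library, printed in each square. Krt19, Krt7, Epcam and Cldn7 form one block (0.54 to 0.83 over both libraries), and Tm4sf4, Clu and Cldn3 another (0.62 to 0.82). Krt19 was found in only 23 Crtc2+/+ and 11 Crtc2-/- cells.

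The cells with a Krt19 UMI were a separate set by other genes as well. This split was chosen after values had been seen, so it is a description. Over both compartments, 38 Crtc2+/+ and 12 Crtc2-/- cells had a Krt19 UMI, with medians of 10 and 9.5 members, and at depths of 12274 and 14127 UMIs, against 7182 and 11489 in the 303 and 245 other cells. Their Epcam level was 1396 CPM in the Crtc2+/+ and 1054 CPM in the Crtc2-/- library, against 72.9 and 21 CPM in the others, and Krt7 was 168 and 119 CPM against 1.92 and 0.913. Cldn7 was 379 and 403 CPM against 34.2 and 42.0. Krt18 and Tm4sf4 differed less: Krt18 was 1561 CPM against 1464 in the Crtc2+/+ and 2258 against 1250 in the Crtc2-/- library, and Tm4sf4 1705 against 1517 and 2551 against 1382 CPM. Krt8 UMIs per Krt18 UMI were 1.26 (1.15 to 1.38) and 1.07 (0.938 to 1.22) in Krt19-detected cells, and 0.805 and 0.607 in the others.

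**Figure D4:**
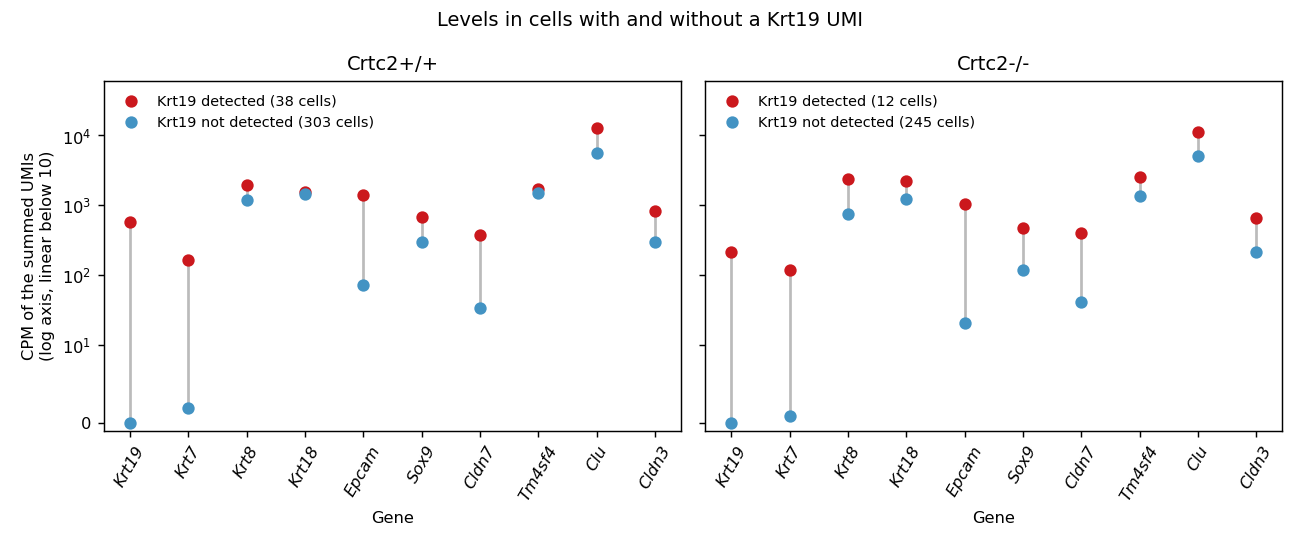
CPM of the summed UMIs (y axis, log scale, linear below 10) of the 10 genes in cells of both compartments with and without a Krt19 UMI, by library; grey lines join the values of a gene. Krt7, Epcam and Cldn7 show wide gaps in both libraries (Epcam 1396 against 72.9 and 1054 against 21 CPM); those of Krt18 and Tm4sf4 are narrower, and smaller in the Crtc2+/+ than in the Crtc2-/- library.

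Genes of the duct that were no members were also high in Krt19-detected cells. Pkhd1, which encodes the ciliary protein fibrocystin, had 1575 CPM against 494 in the Crtc2+/+ and 2124 against 76.1 in the Crtc2-/- library. Muc1, an apical mucin, had 150 CPM against 1.15 and 104 against 0.609, and Cd24a, a surface glycoprotein, had 708 against 58.7 and 492 against 50.5. Ehf, an epithelial ETS factor, had 289 CPM against 45.7 and 239 against 1.52. Hepatocyte genes went the other way, by unlike amounts. Apoa1, the main HDL protein, had 7.32 CPM against 1197 in the Crtc2+/+ and 139 against 9131 in the Crtc2-/- library. Ttr, like Apoa1 part of the rule, differed less, at 1294 against 1759 and 925 against 2321 CPM. In single cells, Apoa1 had 0 or 1 UMI in 38 of 38 Crtc2+/+ cells with a Krt19 UMI, and Fgb 0 in 30 of them. Yet 23 of the 38 passed the hepatocyte threshold, with median counts of 27 Ttr and 8 Alb UMIs and at most 1 Apoa1 UMI, and 17 of the 23 had at least 10 UMIs of the 14 further hepatocyte genes (median 14). In the Crtc2-/- library it was 11 of 12, with median counts of 15 Ttr and 29 Alb UMIs. Mesothelial genes moved with the split: 24 of 38 Crtc2+/+ and 8 of 12 Crtc2-/- cells with a Krt19 UMI had a UMI of the mesothelial list, against 6 of 303 and 8 of 245 other cells. Gpm6a led that list, at 139 CPM against 1.54 and 134 against 5.18, and Msln, Upk3b, Upk1b and Lrrn4, at 9.15 to 36.6 CPM in the Crtc2+/+ cells, were at 0 in the Crtc2-/- cells. One Crtc2+/+ cell held 62 of the 128 mesothelial UMIs, and the highest stellate and fibroblast count in a cell was 183 UMIs. The part of these genes in the split was not tested.

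**Figure D5:**
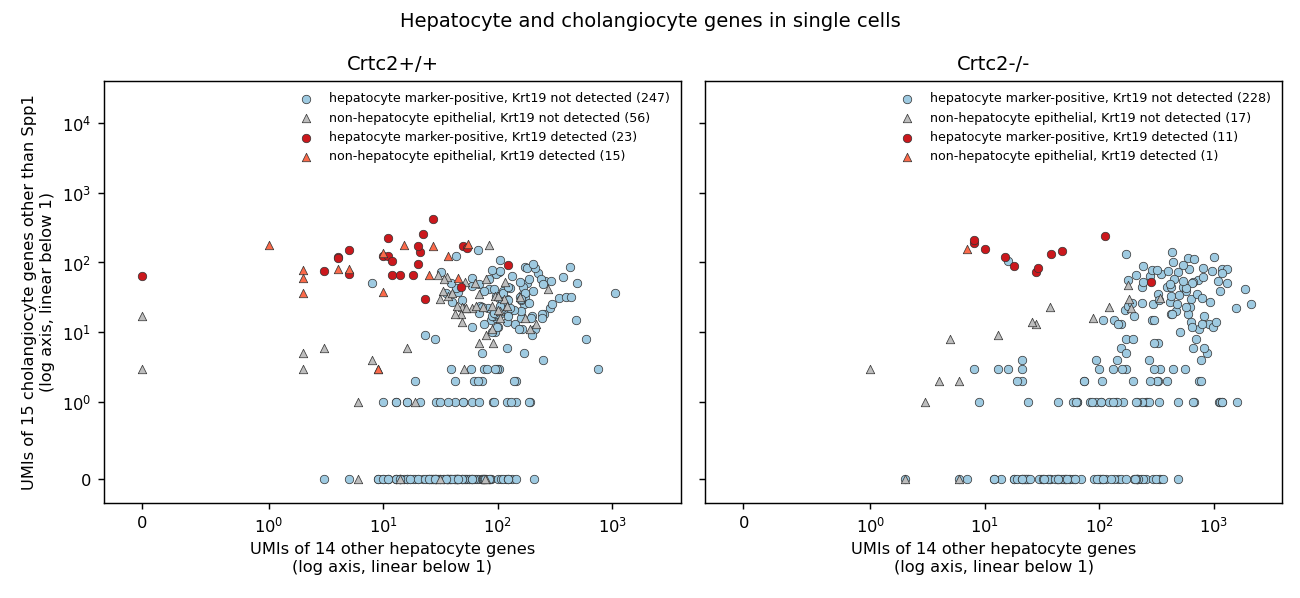
UMIs per cell of 14 hepatocyte genes outside the rule (x axis) and 15 cholangiocyte genes other than Spp1 (y axis), both on log scales that are linear below 1, for every cell of both compartments; circles are hepatocyte marker-positive, triangles non-hepatocyte epithelial, and red shades have a Krt19 UMI. Cells with a Krt19 UMI mostly lie high on the y axis (medians 101 and 139 UMIs) and mostly left on the x axis (medians 12 and 23), while many cells without one hold UMIs of both lists.

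Leaving out the Krt19-detected cells removed the Krt19 difference by construction and moved Krt7 to -0.11, while Epcam (-1.46) and Sox9 (-1.35) remained more than 2-fold lower in the Crtc2-/- library. The median over the members came to -0.26. Within Krt19-detected cells, Krt19 itself was 575 CPM in the Crtc2+/+ and 214 CPM in the Crtc2-/- library, Epcam 1396 and 1054, and Clu 12920 and 11170. In that group 1 of 10 members was 2-fold lower and 0 higher, with 5.02% of genes lower and 4.16% higher. That member was Krt19, which chose the cells, so this count is a description. Its Crtc2-/- level rested on 43 UMIs in 12 cells, of which 5 cells held 79.1%. In the Krt19-undetected cells of both compartments, 2 of 8 measured members, Epcam and Sox9, were lower and 0 higher, with 4.40% of genes lower and 4.57% higher. The Epcam difference in hepatocyte marker-positive cells was thus past 2-fold with and without the Krt19-detected cells. Krt19-detected cells of both compartments made up 0.407% (0.288 to 0.558) and 0.135% (0.0697 to 0.235) of all Crtc2+/+ and Crtc2-/- cells.

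Alb, the main secreted protein of hepatocytes, was read beside each member in cells outside the C1q and Cd3 gates. There, 27 of 32 Krt19-positive Crtc2+/+ cells (84.4%, 67.2 to 94.7) and 10 of 10 Crtc2-/- cells had an Alb UMI. The shares for Krt18 were 86.8% and 84.1%, for Krt8 87.9% and 86.8%, for Sox9 90.3% and 94.8%, for Cldn7 90.1% and 97.9% and for Cldn3 92.1% and 93.4%. Over all cells outside the gates, Alb was found in 22.3% and 24.9%, in T cells in 5.37% and 9.39%, in B cells in 6.47% and 15.1%, and in macrophages in 17.0% and 45.5%. Alb UMIs were thus found in immune cells as well, in larger shares in the Crtc2-/- library. With at least 3 Alb UMIs, 59.4% of the Krt19-positive Crtc2+/+ cells and 10 of 10 Crtc2-/- cells remained, beside 0.521% and 0.769% of T cells and 2.08% and 11.5% of macrophages.

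Among the members, Epcam and Krt7 had the lowest Alb shares in cells outside the gates, which were not all epithelial. Of 262 Crtc2+/+ and 222 Crtc2-/- cells with an Epcam UMI outside the gates, 32.1% and 33.3% had an Alb UMI, and of 40 and 31 cells with a Krt7 UMI, 62.5% (45.8 to 77.3) and 41.9% (24.6 to 60.9). Clu lay between, at 74.2% and 63.8%. These gates still admit B cells, of which 17 Crtc2+/+ (3.06%) and 49 Crtc2-/- cells (3.92%) had an Epcam UMI. Most cells with an Epcam UMI outside the gates were thus not B cells by the Cd79 rule. Of the Epcam cells, 41 Crtc2+/+ and 26 Crtc2-/- cells were hepatocyte marker-positive, and 33 and 9 non-hepatocyte epithelial. Of the Krt7 cells, 17 and 6 were hepatocyte marker-positive, and 11 and 0 non-hepatocyte epithelial. The remaining cells with these genes lay in neither compartment, and their type was not determined.

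In the non-hepatocyte epithelial cells the members were part of the rule, so the following levels are a description. Krt19 had 96 UMIs in 15 of 71 Crtc2+/+ cells (142 CPM, 115 to 173) and 1 UMI in 18 Crtc2-/- cells (3.18 CPM, 0.0806 to 17.7), a CPM ratio of 0.0225 (0.000563 to 0.128). Krt7 had 33 UMIs (48.7 CPM) and 0 UMIs, so it was at least 5.1-fold lower against a floor of 3 counts in the Crtc2-/- library. Epcam had 514 CPM (461 to 571) and 105 CPM (72.3 to 148), Cldn7 161 and 25.5 CPM, Cldn3 533 and 124 CPM, and Sox9 381 and 137 CPM. Krt18 had 1720 and 1662 CPM, Tm4sf4 1822 and 1860 CPM, Clu 8770 and 7945 CPM and Krt8 1549 and 917 CPM. Krt19, Krt7, Epcam, Cldn7, Cldn3 and Sox9 were thus more than 2-fold lower, and Krt18, Tm4sf4 and Clu close. In cells with fewer than 10 UMIs of the hepatocyte genes (26 and 12 cells), Clu was lower too, with a log2 ratio of -1.30, and Krt8 came to -1.29.

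Of the 10 members, 6 were 2-fold lower here and 0 higher, where 12.9% of 7838 genes were lower and 8.83% higher. Few cells carry the Crtc2-/- values: 5 of 18 cells held 79.2% of the Krt8, 75.7% of the Krt18, 82.2% of the Tm4sf4 and 82.6% of the Clu UMIs. Endothelial genes moved with this comparison, with 6 of 6 higher in the Crtc2-/- library (summed levels 17.7 and 1446 CPM, 2 and 0 at 0), and 3 of the 18 cells held 445 of the 454 endothelial UMIs. Stellate genes were lower in 4 of 4 measured (272 and 19.1 CPM, with 3 and 5 of 8 genes at 0), but 183 of the 184 Crtc2+/+ UMIs lay in 1 cell. Their part in the result was not tested. Without cells that had a Ptprc UMI or at least 10 UMIs of another cell type's list, 62 and 11 cells were left, in which Krt19 came to -3.19, Epcam to -1.63 and Cldn3 to -1.43, Sox9 to -0.80 and Krt18 to 0.53.

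Within the hepatocyte marker-positive cells, the members were read by the UMI count of the 3 hepatocyte genes, which was not scaled to depth. From the lowest to the highest bin, median depths were 9834, 3884.5 and 6324 UMIs in the Crtc2+/+ library. They were 9411, 9422.5 and 18463 UMIs in the Crtc2-/- library. The same bin can therefore be a different share of a cell's UMIs in each library. In the highest bin Krt19 had 0 UMIs and Epcam its lowest CPM in both libraries. Krt19 had 112 CPM in Crtc2+/+ cells with 20 to 49 marker UMIs, 77.7 CPM with 50 or more but under 200, and 0 UMIs with 200 or more, and 25.4, 25.2 CPM and 0 UMIs in the Crtc2-/- library. Epcam had 328, 188 and 3.78 CPM and, in the Crtc2-/- library, 142, 133 and 13.3 CPM. The share of Crtc2-/- cells with an Epcam UMI was not lower, at 8 of 73 in the lowest and 11 of 84 in the highest bin. In that lowest bin, 5 cells held 83.2% of the Epcam UMIs. The highest bin held 25 Crtc2+/+ and 84 Crtc2-/- cells, and a count of 0 there allows up to 11.3 and 1.99 CPM of Krt19.

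For the more widespread members the libraries differed along the same range of marker UMIs, at the unlike depths given above. Clu had 8076, 4890 and 2276 CPM in the Crtc2+/+ library, and 4919, 4936 and 5592 CPM in the Crtc2-/- library. Tm4sf4 had 1699, 1415 and 532 CPM, and 1787, 1260 and 1326 CPM. Sox9 had 451, 320 and 41.5 CPM, and 180, 124 and 129 CPM. In the Crtc2+/+ library these 3 genes were lower at each step up in hepatocyte markers. In the Crtc2-/- library Tm4sf4 and Sox9 were lower at the first step only, and Clu at neither. Across single cells, Tm4sf4 and the log-normalised sum of the 3 markers had an r of -0.64 in 270 Crtc2+/+ and -0.24 in 239 Crtc2-/- cells, Sox9 of -0.64 and -0.25, and Clu of -0.35 and -0.00. The difference between the libraries along this range, and the part of depth in it, were not tested.

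Other duct genes followed the members. Of 16 further cholangiocyte genes measured in hepatocyte marker-positive cells, 8 were 2-fold lower in the Crtc2-/- library and 1 higher, with a median of -1.06, against 4.0% and 4.21% of all genes. Spp1, the secreted phosphoprotein osteopontin, had 30645 CPM in the Crtc2+/+ and 6048 CPM in the Crtc2-/- library, Bicc1, an RNA-binding protein of ducts, 871 and 289 CPM, and Cftr, the chloride channel of the duct surface, 67.1 and 6.94 CPM. Tspan8, a tetraspanin, went the other way at 303 and 799 CPM. By single cells, Spp1 also led the genes most like the summed members, with a lower r over the 2 libraries of 0.71 among 9747 genes, ahead of Bicc1 (0.62), Cxadr, an epithelial junction receptor (0.62), Sox4 (0.61), Dsg2, a desmosomal cadherin (0.58), Ptprf (0.57), complement C3 (0.57) and Spint2, a protease inhibitor (0.57).

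The Notch and YAP pathways act upstream of Sox9 in duct fate. Of 12 measured genes of these pathways and their targets, 1 was 2-fold lower and 1 higher, beside 4.0% and 4.21% of all genes. Hes1, a Notch target that did not pass 2-fold, had 236 and 145 CPM, and Amotl2, a YAP target, 62.2 and 20.5 CPM, while Ankrd1, also a YAP target, had 10.5 and 62.7 CPM. Of 8 progenitor and oncofetal genes measured, 3 were higher and 0 lower: Afp, the fetal serum protein, had 9.29 CPM in the Crtc2+/+ and 257 CPM in the Crtc2-/- library, and Gpc3, a glypican of fetal liver and liver cancer, 67.1 and 176 CPM. These oncofetal genes were thus high where Krt19, Epcam and Sox9 were low, while Sox4 was close (245 and 220 CPM). Among other keratins, Krt23 was higher in the Crtc2-/- library, at 19.8 and 64.6 CPM, and of 11 other claudin and junction genes 1 was lower, Cldn6 (22.2 and 3.47 CPM), with F11r at 312 and 215 CPM.

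Hepatocyte genes and genes of other cells moved with these comparisons in hepatocyte marker-positive cells, where 4.0% of all genes were 2-fold lower and 4.21% higher. Of 17 hepatocyte genes, 12 were 2-fold higher and 0 lower in the Crtc2-/- library (summed levels 21574 and 46266 CPM, 2 and 0 genes at 0). The list includes Alb, Apoa1 and Ttr, which chose these cells. Of these, Apoa1 was at 1251 and 9460 CPM and Alb at 7952 and 9683 CPM. Outside the rule, Trf was at 2887 and 6141 CPM and Ahsg at 2119 and 4329 CPM. Of 6 endothelial genes, 5 were higher (80.4 and 417 CPM, 0 at 0 in either library), led by Stab2 at 3.64 and 76.3 CPM, and 2 Crtc2+/+ and 16 Crtc2-/- cells had at least 10 endothelial UMIs. Of 8 macrophage genes, 3 were lower and 1 higher (1846 and 670 CPM, 1 and 0 at 0). Their part in the members' differences was not tested. Without cells that carried leukocyte transcripts or another cell type's list, which left 187 and 145 cells, Krt19 came to -2.01, Epcam to -1.61, Sox9 to -1.31 and Krt7 to -1.49.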

How the data were processed

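Libraries were made with 10x Genomics 3' chemistry, per the labels' protocols. The deposited values are raw UMI counts per gene and barcode; per the file headers, Cell Ranger 7.1.0 produced them, and mm10, Cell Ranger and Seurat are named in the submitters' processing notes. The annotation, intron counting and barcode filter were not stated in the labels; the lowest barcodes had 502 and 501 UMIs. Barcodes were kept with at least 500 UMIs, 250 genes and at most 20% mitochondrial UMIs. Scrublet (scanpy 1.11.5, expected rate 0.8% per 1000 cells) removed 263 Crtc2+/+ and 273 Crtc2-/- doublets, and missed doublets remain. T cells had at least 2 Cd3 UMIs, B cells at least 3 Cd79 UMIs, macrophages over 9 C1q UMIs. UMIs were summed per library and compartment, with totals given as CPM. Intervals are exact Poisson, Clopper-Pearson or conditional ratio intervals. Of 32285 features, 99.6% matched GENCODE M21.

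Named genes were the 10 members, up to 4 genes per list by level and 2 by ratio, and 8 most like the member sum (seen in at least 5% of cells). The 8 genes highest in non-hepatocyte epithelial over hepatocyte marker-positive cells, with a minimum of 50 CPM, are given in the closing section, apart from 1 that is not reported here. Cells with a Krt19 UMI, and duct genes compared in them, were chosen after values were seen. Members and lists were chosen with earlier results of these data known. Ratios were checked on simulated Poisson counts of library sums, with changes set only in genes of at least 50 CPM. That check did not cover spread between cells or changes in genes below that level.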

Additional observations from a re-analysis of the deposited data

How the results depend on the processing

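No paired analysis was possible because each genotype had 1 library, and for the same reason no replicate could be left out. No called value changed direction under any alternative run. The median log2 ratio of the members in hepatocyte marker-positive cells moved from -0.52 to -0.34 with at least 50 hepatocyte marker UMIs, to -0.78 without leukocyte transcripts, to -0.26 without Krt19-detected cells and to -0.76 without leukocyte and other cell transcripts; in non-hepatocyte epithelial cells it moved from -1.71 to -1.12 without other cell transcripts. The last 3 of these, leaving out Krt19-detected cells or other cell transcripts, were chosen after seeing the data. The share of hepatocyte marker-positive cells was 2.51% (Crtc2+/+) at a mitochondrial limit of 10%. It was 1.42% (Crtc2+/+) and 1.87% (Crtc2-/-) with at least 50 marker UMIs, 2.36% and 2.21% without leukocyte transcripts, and 2.00% and 1.63% without other cell transcripts too, where fewer cells qualify by construction. Non-hepatocyte epithelial cells were 0.278% (26 Crtc2+/+ cells) and 0.135% (12 Crtc2-/- cells) with fewer than 10 marker UMIs, against 0.759% and 0.202%, so the gap between libraries was smaller. At least 3 members were found in 81.3% of Crtc2-/- cells with 50 marker UMIs, and in 54.4% and 40.8% of cells thinned to 1000 UMIs. With at least 3 Alb UMIs, Alb was found in 59.4% of Krt19-positive Crtc2+/+ cells and in 74.3% and 75.2% of Krt18-positive cells. Where construction does not show it, the cause was not tested. Of the single members' values, 146 stayed within their counting interval and 84 moved. Depth limits Krt19 and Krt7, whose Crtc2-/- levels rest on 42 and 27 UMIs in hepatocyte marker-positive cells.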

Other observations

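Among genes with at least 50 CPM in non-hepatocyte epithelial cells of both libraries, those highest there over hepatocyte marker-positive cells were not duct genes. Vim, the mesenchymal and leukocyte intermediate filament, had 298 against 63.8 CPM in the Crtc2+/+ and 876 against 206 CPM in the Crtc2-/- library. Naaa had 72.4 against 10.9 and 194 against 18.0 CPM, and Wdfy4, a dendritic cell gene, 111 against 18.2 and 197 against 44.5 CPM. Lsp1, a leukocyte protein, had 120 against 21.01 and 147 against 49.8 CPM. Plbd1, Cd44 and Napsa came after them, with log2 ratios in the lower library of 1.25, 1.18 and 1.17. Among the members, Krt19 was higher in non-hepatocyte epithelial cells in the Crtc2+/+ library (142 against 88.1 CPM) and lower in the Crtc2-/- library (3.18 against 13.2 CPM), where 18 cells were counted.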
